A study of Mus musculus with 20 samples.

Results

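The genes described here are 34 mouse genes of DNA replication and mitosis, chosen by symbol and read in every library of a bulk RNA-seq series. All 34 were found, each on 1 of the 24826 rows of the expression table: 16 genes of DNA replication and its G1/S control (Mcm2 to Mcm7, Pcna, Rrm1, Rrm2, Tyms, Cdc6, Cdt1, Gins2, Ccne1, Ccne2 and E2f1) and 18 genes of mitosis (Ccna2, Ccnb1, Ccnb2, Cdk1, Cdc20, Plk1, Aurka, Aurkb, Bub1, Bub1b, Birc5, Top2a, Mki67, Kif11, Kif20a, Cenpa, Cenpe and Nusap1). The series holds 20 libraries of total RNA from wild-type mice, 1 from a mouse or mice given DHEA and 1 from the control condition, labelled "sasame oil", in each of 10 tissues: intestine, uterus (spelled "Utery" in the labels), spleen, thymus, ovary, lung, kidney, liver, heart and brain. DHEA (dehydroepiandrosterone) is an adrenal precursor of the sex hormones, and its administration to mice serves as an androgen excess model. Strain, age, dose, duration, the number of mice, the part of brain or intestine that was sampled and which tissues came from the same animal are not stated in those sources that were used here. The stage of the ovarian cycle is not given either, and in ovary and uterus it cannot be told apart from treatment. The sample descriptions also carry the words "10x Genomics", whereas bulk RNA-seq is named in the series text and assumed here.

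A dividing cell uses these groups of genes one after the other. Cdc6 and Cdt1 load the Mcm2 to Mcm7 helicase onto DNA before S phase, cyclin E and E2F1 drive the entry into S phase, and PCNA clamps the polymerases while ribonucleotide reductase (Rrm1 and Rrm2) and thymidylate synthase (Tyms) supply nucleotides. Cyclin B with CDK1 then starts mitosis, the Aurora and Polo kinases build the spindle, BUB1 and BUBR1 (Bub1b) hold the checkpoint, and CDC20 releases it. Transcripts of the first group usually peak around the start of S phase and those of the second in late G2 and mitosis, so that bulk levels of both follow the share of cycling cells. Thymus, where immature T cells proliferate, spleen, ovarian follicles, the oestrogen-stimulated uterus and the crypts of the intestine are known sites of division in adult mice, while most cells of brain, heart, liver and kidney are out of the cycle.

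The promoters of the 2 groups carried different short sequences. Motifs of 3 classes were searched on both strands in the RefSeq promoter table (GRCm38.p6), which gives 300 bases per promoter, 250 before and 50 after the start site: the E2F site (TTTCCCGC, TTTGGCGC, TTTCGCGC or TTTGCCGC), typical of G1/S genes; the cell cycle homology region, or CHR (TTTGAA or TTCGAA), typical of mitotic genes; and CCAAT, the site of NF-Y. Promoters were listed for 28 of the 34 genes, 13 of replication and 15 of mitosis, and not for Mcm4, Gins2, Ccne2, Ccna2, Aurkb and Kif20a. The 28 genes had 29 promoters, of which 24 ended in bases found near the start of a GENCODE M21 transcript of the gene. An E2F word stood in 6 of 13 replication promoters (46.2%) and 1 of 15 mitosis promoters (6.67%), against 2.6% of the promoters of 27025 genes. The replication genes without an E2F word were Mcm2, Pcna, Rrm1, Rrm2, Tyms, Ccne1 and E2f1. A CHR word stood in 2 of 13 replication promoters (15.4%) and 11 of 15 mitosis promoters (73.3%), against 21.7% of all. CCAAT was found in 61.5% of the replication and 86.7% of the mitosis promoters, against 41.1% of all, and CHR together with CCAAT in 15.4% and 73.3%, against 9.65%. The E2F words of 1 gene can overlap, as they do in Mcm5 and Mcm6, and a match is a description of letters, not of a bound site.

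The promoters of 6 genes are printed to show the contrast, 3 of replication genes and 3 of mitosis genes. They were chosen after the values and motifs were seen. Each line gives the 180 bases before the RefSeq start site, 5′ to 3′ in the direction of the gene, with every motif match in capitals. Mcm5 lies at chr8:75109329-75109508 (plus strand), Mcm6 at chr1:128359706-128359885 (minus strand), Cdc6 at chr11:98907971-98908150 (plus strand), Ccnb2 at chr9:70421555-70421734 (minus strand), Cdk1 at chr10:69352913-69353092 (minus strand) and Cdc20 at chr4:118437344-118437523 (minus strand), all in GRCm38.p6. In Mcm5 the first bases of an overlapping pair of E2F words lay at -153 and -149 from the start, and in Mcm6 at -110 and -106 with another at -47. Cdc6 had 1 E2F word, at -138 on the opposite strand, and no CHR or CCAAT word. Ccnb2 carried CCAAT at -87, -54 and -21, with a CHR word at -167 and another just after the start, outside the printed bases. Cdc20 carried a CHR word at -18 between CCAAT words at -53 and -8, and Cdk1 had CHR words at -71 and -15, CCAAT words at -80 and -48 and the only E2F word of the mitosis promoters, at -131.
Mcm5: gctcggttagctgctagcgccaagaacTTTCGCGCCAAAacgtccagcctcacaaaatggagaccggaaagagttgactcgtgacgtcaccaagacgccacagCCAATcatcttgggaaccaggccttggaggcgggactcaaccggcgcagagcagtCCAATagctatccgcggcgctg
Mcm6: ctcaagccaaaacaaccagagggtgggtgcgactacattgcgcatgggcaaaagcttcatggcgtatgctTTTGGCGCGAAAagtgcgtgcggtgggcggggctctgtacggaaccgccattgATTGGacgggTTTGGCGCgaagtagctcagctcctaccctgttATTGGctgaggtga
Cdc6: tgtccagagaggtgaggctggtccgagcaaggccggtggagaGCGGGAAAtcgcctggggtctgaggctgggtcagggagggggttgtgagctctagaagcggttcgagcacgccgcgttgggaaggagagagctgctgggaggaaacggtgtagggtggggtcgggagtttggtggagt
Ccnb2: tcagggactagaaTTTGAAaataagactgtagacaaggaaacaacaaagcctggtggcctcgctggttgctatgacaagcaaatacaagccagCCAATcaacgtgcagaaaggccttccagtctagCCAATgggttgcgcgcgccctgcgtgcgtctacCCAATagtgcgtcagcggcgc
Cdk1: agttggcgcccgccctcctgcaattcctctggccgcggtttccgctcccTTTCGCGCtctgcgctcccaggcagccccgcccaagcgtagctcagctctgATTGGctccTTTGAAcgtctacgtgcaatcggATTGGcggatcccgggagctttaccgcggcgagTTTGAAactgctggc
Cdc20: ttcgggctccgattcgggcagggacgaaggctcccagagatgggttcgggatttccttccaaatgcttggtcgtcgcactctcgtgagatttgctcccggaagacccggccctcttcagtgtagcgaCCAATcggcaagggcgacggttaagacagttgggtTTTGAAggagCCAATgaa

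Values are FPKM, fragments per kilobase of gene, scaled to the fragments of the library, as deposited by the authors, so levels can be compared between genes. Whole reads were recovered from the values, and libraries held 13206956 to 20704230 reads. Thymus, ovary and intestine carried the markers of their labels: thymocyte markers summed to 5844 and 5298 FPKM in the thymus pair, 12 of 12 oocyte markers were measured in ovary, and enterocyte markers summed to 10938 and 7968 FPKM in intestine. The 34 genes took from 0.0106% of the reads (liver, DHEA) to 0.520% (thymus, control). Folds below are ratios of FPKM, DHEA over control, each followed by its exact 95% Clopper-Pearson bounds computed on reads, so that the bounds cover counting error only and leave out differences between animals. A gene is called 2-fold higher or lower in a tissue when log2(FPKM + 1) differs by at least 1 and the mean of the pair is at least 1 FPKM. With 1 library per tissue and treatment there is no replicate check of any ratio within a tissue, and no p-value is given for one. The strand setting of the counting is not stated, and 5 of the genes share over 10% of their exon bases with another gene in GENCODE M21: Gins2 (67.3%, with Gse1), Kif20a (29.3%, with Cdc23), Ccne2 (17.4%, with Ints8), Mcm7 (12.6%) and Ccna2 (12.5%, with Exosc9). Their values may hold reads of the partner.

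Among the controls, thymus had the highest level of 31 of the 34 genes, 15 of replication and 16 of mitosis. Pcna stood at 149 FPKM in the control and 147 in the DHEA thymus, Rrm2 at 129 and 114, and Mcm7, the highest of the helicase genes, at 73.8 and 67.2. Ccnb2, the highest mitotic cyclin, stood at 101 and 87.0 FPKM, Cdc20, the activator of the anaphase-promoting complex, at 84.2 and 66.7, and Top2a, the topoisomerase that untangles sister DNA, at 54.6 and 43.5. For 23 genes both thymus libraries were above all 18 others. The exceptions by control level were Ccne2 (4.77 FPKM in control and 4.003 in DHEA ovary, against 2.03 and 2.33 in thymus), the checkpoint kinase gene Bub1 (6.29 and 6.81 in ovary, against 3.49 and 4.15) and the kinetochore motor gene Cenpe (3.94 and 4.21, against 2.32 and 2.34), whose 2 ovary libraries were each above all others. For 8 genes no tissue had both libraries on top. Of these 8, 7 had their highest DHEA level in spleen, among them Cdc6 (15.7 FPKM), Ccne1 (16.9 FPKM) and Ccna2 (43.0 FPKM).

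**Figure D1:**
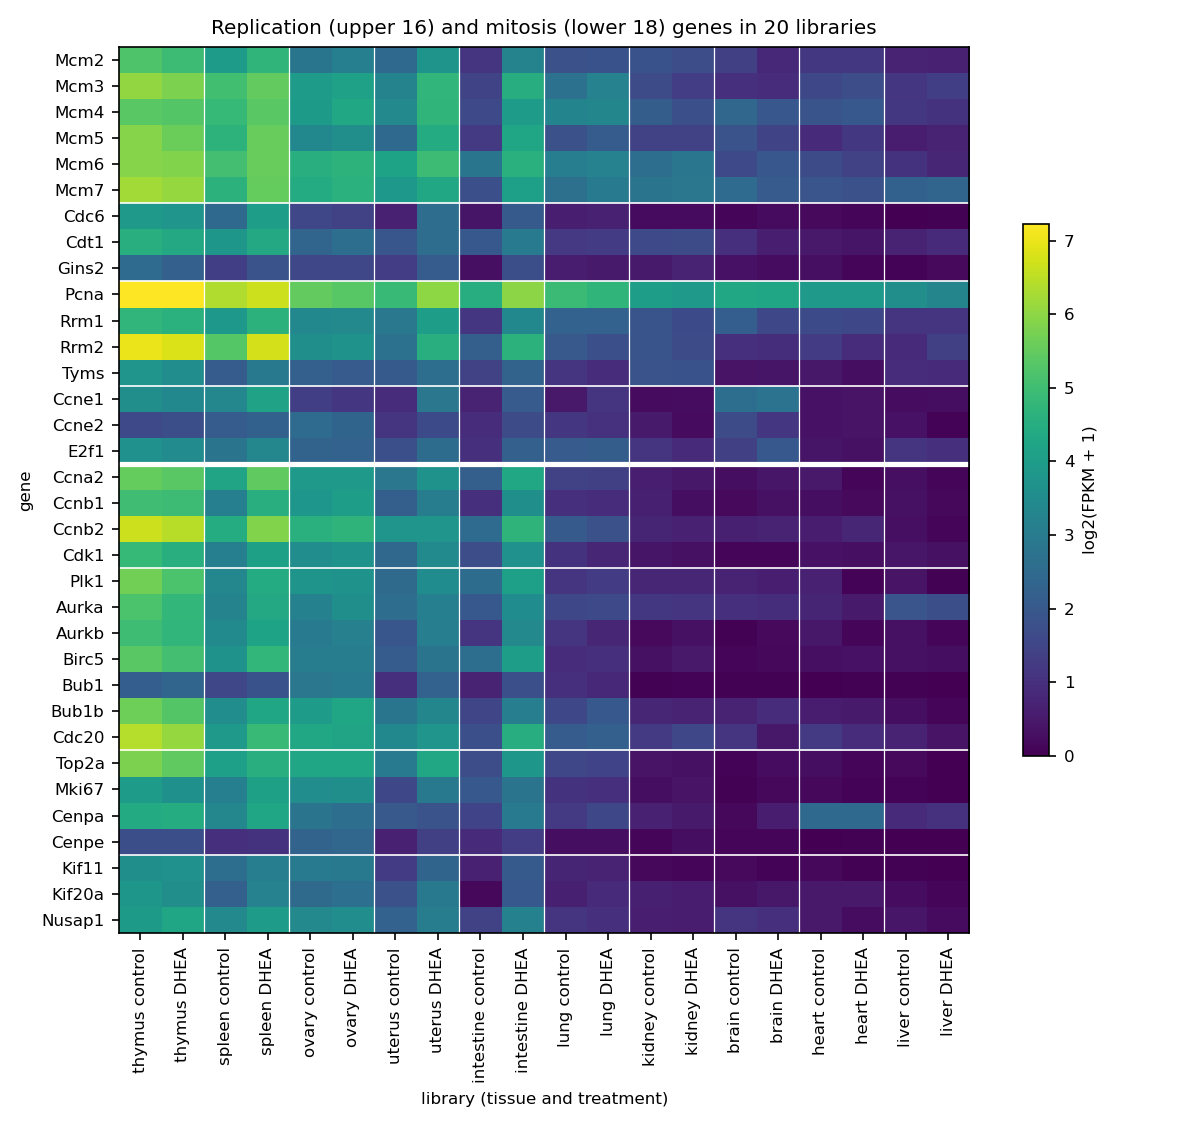
Level of each gene as log2(FPKM + 1) in the 20 libraries, with 1 row per gene and 1 column per library, replication genes above the thick white line and mitosis genes below it; thin horizontal lines separate the roles. The thymus columns are the brightest, spleen follows, and the intestine and uterus pairs change from a dark control to a brighter DHEA column.

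The medians of the 2 groups were not in the same order in every tissue. The median level in control thymus was 31.5 FPKM over the 16 replication genes and 31.0 over the 18 mitosis genes, and in control spleen 14.2 and 9.07. Both libraries of ovary and of intestine had the mitosis median on top, at 7.63 and 10.1 FPKM in control ovary (8.64 and 11.1 with DHEA) and at 1.51 and 2.08 FPKM in control intestine (8.86 and 9.93 with DHEA). In brain, kidney and liver the replication median stayed well above the mitosis median. Brain controls had medians of 1.80 and 0.139 FPKM, kidney 2.33 and 0.516, and liver 0.875 and 0.248. Pcna, which also serves DNA repair, was at 8.71 FPKM or more in all 20 libraries. Bub1, Cenpe and Mki67, by contrast, had 0 reads in the DHEA liver. As a share of the control thymus, the median gene of control ovary stood at 28.6% for replication and 32.4% for mitosis, and that of control spleen at 49.7% and 29.1%. In a bulk sample, fewer cells of a type and less RNA per cell cannot be told apart, and this holds for every level and ratio here.

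**Figure D2:**
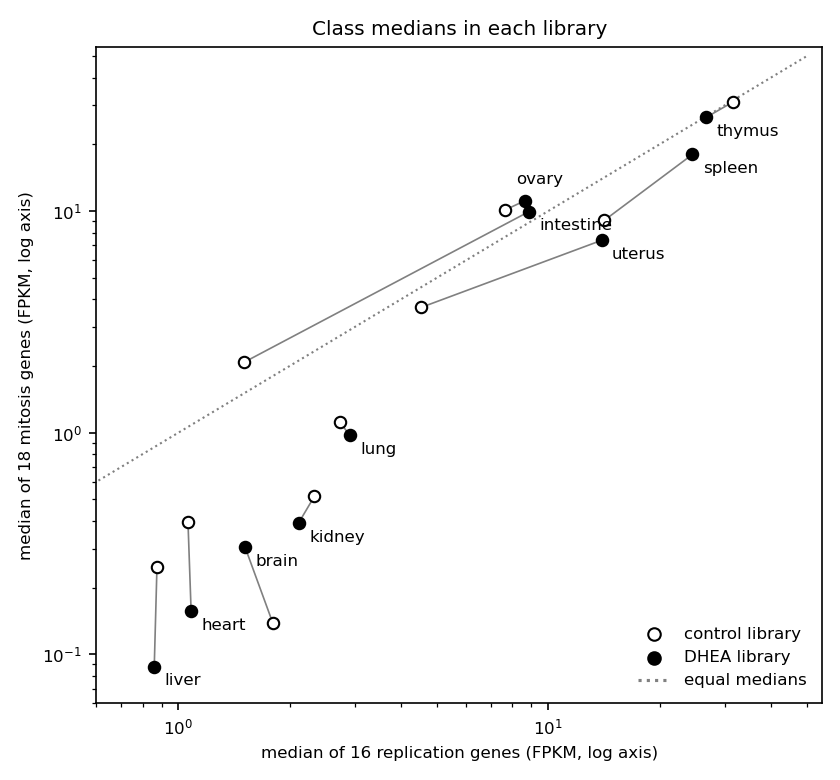
Median FPKM of the 16 replication genes (x axis) and of the 18 mitosis genes (y axis) in each library, on log axes, with control (open) and DHEA (filled) libraries of a tissue joined by a line and equal medians dotted. Ovary and intestine lie above or on the dotted line; intestine, uterus and spleen have the longest lines, with DHEA up and to the right, and lung, kidney, brain, heart and liver stay far below the line.

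Some single genes went against the order of their group. Ccne1, the cyclin of S phase entry, was at 5.16 and 5.76 FPKM in the brain pair, where Cdc6 was at 0.0823 and 0.161, and at 0.166 and 0.171 in kidney. Cenpa, the histone that marks centromeres, was at 4.54 FPKM in both heart libraries, where the median mitosis gene had 0.397 and 0.156. Aurka, the spindle pole kinase, was at 2.71 and 2.35 FPKM in liver, where the median mitosis gene had 0.248 and 0.0878.

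These tissue differences were tested with limma on log2(FPKM + 1) in 14833 genes, each tissue against the mean of the other 9 with treatment as a covariate and Benjamini-Hochberg adjustment over all genes. Nothing in the labels says that libraries came from separate animals, so p-values measure only the spread between these samples. The spread in that fit is the one within tissues, between libraries that differ in treatment. Thymus was higher for 16 of 16 replication and 18 of 18 mitosis genes, where 39% of all genes tested were higher. Spleen was higher for 16 and 17, where 35.6% of all genes were higher, with Cenpe as the remaining gene (0.28 ± 0.14 SE, adjusted p = 0.097). Rrm2 had the largest difference in both, 4.31 ± 0.47 (SE) in thymus and 3.33 ± 0.47 in spleen on the log2 scale (limma adjusted p = 8.6e-06 and 7.8e-05).

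Ovary was higher for all 18 mitosis genes and for 4 of 16 replication genes (Mcm4, Mcm6, Mcm7 and Ccne2), where 41.2% of all genes tested were higher and 18.6% lower. Its largest differences were Top2a (2.18 ± 0.37 SE), Ccnb1 (2.14 ± 0.44), Mki67 (2.06 ± 0.27), which encodes the Ki-67 antigen, and Ccnb2 (2.05 ± 0.38), with limma adjusted p between 4.9e-05 and 0.0012. Ccne1 was at -0.41 ± 0.34 in the same contrast (adjusted p = 0.31). The median difference in ovary was 1.73 over the mitosis genes, 0.64 over the replication genes and 0.28 over all genes. In spleen it was 2.12 for replication, 1.86 for mitosis and 0.11 for all genes, but with a pseudocount of 0.1 FPKM the order turned, to 2.36 for replication and 2.70 for mitosis. Whether the 2 groups differed from each other was not tested, because genes are not replicates of a tissue. The count of replication genes higher in ovary was 8 with a pseudocount of 0.1 FPKM and 10 with libraries scaled to the same FPKM sum. Of all genes, 6383 of 14833 and 7931 of 15016 were higher in ovary in those settings.

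Uterus was higher for 3 replication genes (Mcm6, Tyms and Gins2) and 6 mitosis genes (Ccna2, Ccnb2, Cdk1, Bub1b, Top2a and Kif20a), where 25.1% of all genes were higher. Intestine was higher for 0 replication and 5 mitosis genes (Ccna2, Ccnb2, Plk1, Birc5 and Mki67), where 18.1% of all genes were higher and 48.2% lower, with Birc5, the survivin gene of the chromosomal passenger complex, at 1.42 ± 0.27 (SE; limma adjusted p = 0.00066). Lung was lower for 4 replication and 12 mitosis genes, where 18.5% of all genes were lower. Kidney was lower for 11 and 18 (33% of all genes lower), brain for 11 and 18 (37.5%), heart for 16 and 17 (57.9%) and liver for 16 and 17 (70.6%). The single member higher in one of these tissues was Ccne1 in brain, at 1.20 ± 0.34 (SE; limma adjusted p = 0.0081; 28.7% of all genes were higher there). The members not lower in heart and liver were Cenpa (0.43 ± 0.26, adjusted p = 0.16) and Aurka (-0.64 ± 0.30, adjusted p = 0.064). With a pseudocount of 0.1 FPKM the mitosis counts were 14 higher in uterus, 9 higher in intestine and 4 lower in lung, and with equal FPKM sums 1 was higher in intestine. Of all 14833 genes, 4125 were higher in uterus, 2939 higher in intestine and 2302 lower in lung with that pseudocount. With equal sums 1732 of 15016 were higher in intestine.

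**Figure D3:**
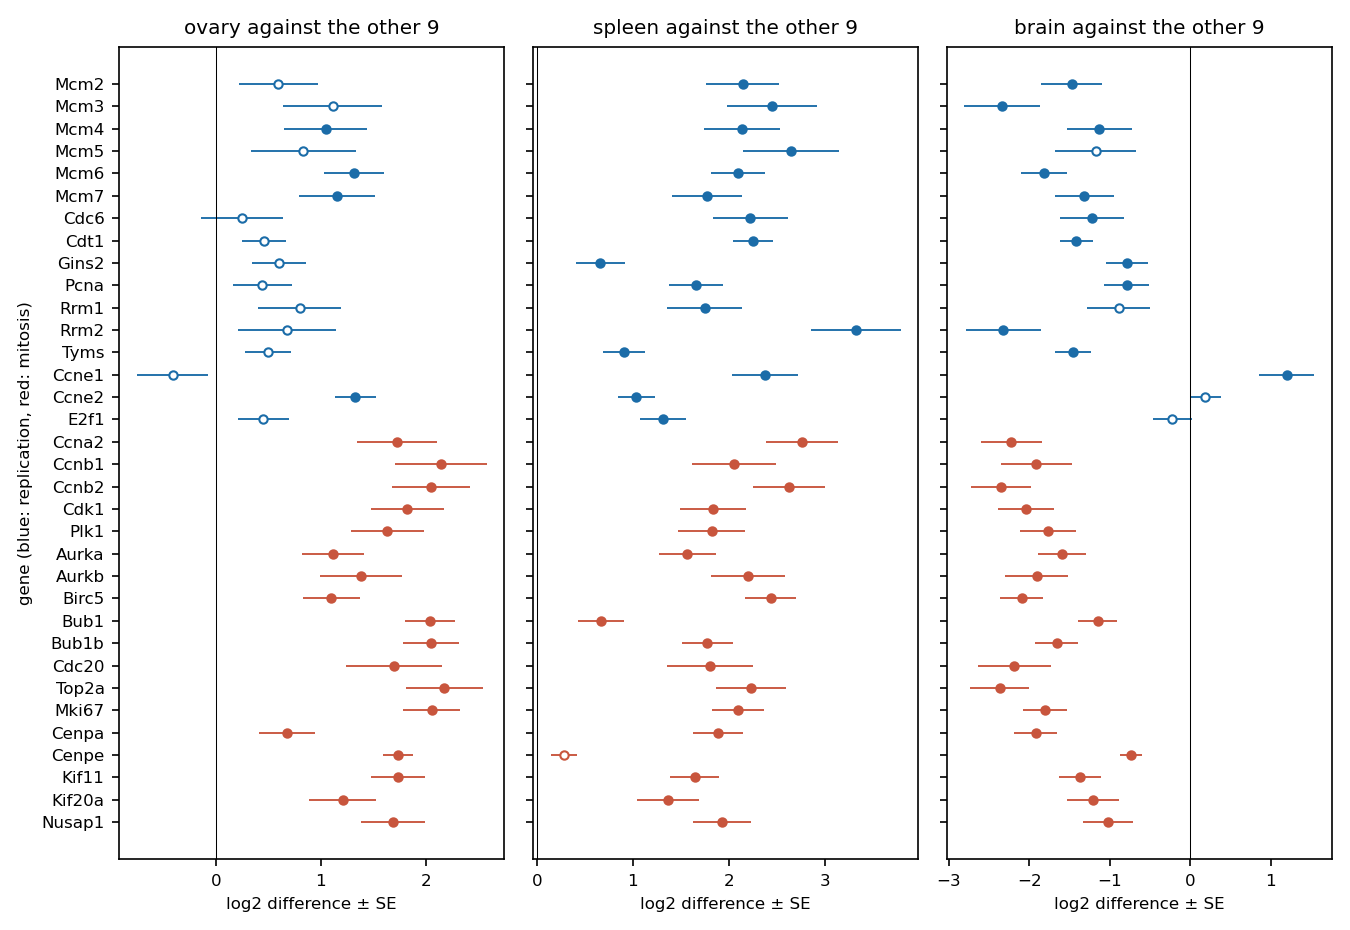
Difference of ovary, spleen and brain from the mean of the other 9 tissues for each gene, in log2(FPKM + 1) with its standard error from limma; filled points have an adjusted p under 0.05. In ovary all 18 mitosis genes and 4 replication genes are filled to the right of 0, in spleen all 34 lie to the right, and in brain Ccne1 is the filled point on that side.

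The intestine pair had the largest DHEA difference. All 34 genes were higher in the DHEA library, 29 of them by 2-fold or more (13 of 16 replication and 16 of 18 mitosis genes) and 0 lower by 2-fold, where 11.9% of all genes measured in that pair were 2-fold higher and 2.51% lower. The median log2 ratio was 1.70 for replication and 1.68 for mitosis, against 0.21 over all genes. For 9 of the 34 genes the control was under 1 FPKM, so they were measured because the DHEA value was high.

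The helicase genes were all 2-fold higher in intestine. Mcm5 had 1.36 FPKM in the control library and 18 in the DHEA library, a ratio of 13.3 (10.6 to 16.9). Mcm3 was at 1.80 and 21.5 FPKM, 11.9-fold (9.73 to 14.8). On the log2(FPKM + 1) scale these were the largest ratios of the 34 genes, 3.01 each. In the authors' deposited log2 values, which add no pseudocount, Kif20a was higher, at 4.67 on few control reads, and Mcm5 stood at 3.81. Mcm2 (1.14 and 8.35 FPKM), Mcm4 (2.03 and 14.5) and Mcm7 (2.40 and 15.97) were 6.65-fold to 7.31-fold higher, and Mcm6 (6.03 and 22.8), the highest of the 6 in control, 3.78-fold. The 6 subunits act in one ring at equal numbers, and the ratio of the highest to the lowest of them was 5.27 in control and 2.73 in DHEA intestine, where it was 2.01 and 2.23 in the thymus pair.

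Among the other replication genes of intestine, the loading factor gene Cdc6 was at 0.332 and 3.14 FPKM (26 and 221 reads), 9.46-fold (6.29 to 14.8). Rrm2, the regulated subunit of ribonucleotide reductase, was at 3.52 and 23.8 FPKM, 6.75-fold (5.66 to 8.10), and its partner Rrm1 at 1.22 and 9.37. Pcna, the most abundant of the 34 in that control, was at 21.9 and 61.3 FPKM, 2.80-fold (2.58 to 3.05). Ccne1 had 0.653 and 3.21 FPKM, E2f1 1.02 and 3.63, and Gins2, a subunit of the GINS complex that activates the helicase, 0.228 and 2.34. The 3 genes short of the 2-fold limit on the log2(FPKM + 1) scale were Tyms (1.66 and 3.89 FPKM), Cdt1 (2.98 and 6.92) and Ccne2 (0.899 and 2.13), whose FPKM ratios were 2.34, 2.32 and 2.37.

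Of the mitosis genes in intestine, Cdc20 had the largest ratio on the log2(FPKM + 1) scale, with control and DHEA levels of 2.40 and 21.5 FPKM, 8.96-fold (6.94 to 11.7). Ccnb1 followed, with 0.998 and 11.2 FPKM, 11.2-fold (8.64 to 14.8). Kif20a, a kinesin of cytokinesis, was at 0.123 and 2.97 FPKM, which rest on 8 and 173 reads. The kinase genes Aurkb (1.18 and 9.52 FPKM), Cdk1 (2.29 and 11.5), Aurka (2.98 and 10.3) and Plk1 (4.83 and 15.8) were 3.26-fold to 8.07-fold higher. Top2a (2.28 and 13.1 FPKM), Ccna2 (3.57 and 19.3), Ccnb2 (4.76 and 24.8), the spindle genes Nusap1 (1.61 and 8.10) and Kif11 (0.591 and 3.12), Bub1b (1.88 and 7.54), Bub1 (0.660 and 2.38) and Cenpa (1.74 and 6.89) were 3.60-fold to 5.75-fold higher. Birc5 was at 5.05 and 15.3 FPKM. The 2 mitosis genes under the limit were Mki67 (2.97 and 5.86 FPKM, 1.97-fold, 1.75 to 2.22) and Cenpe (0.814 and 1.47 FPKM).

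Markers of lymphoid cells and some gut genes differed between the same intestine libraries. All 8 B cell markers were 2-fold higher in the DHEA library (median log2 ratio 4.47), with a summed level of 6.85 FPKM in control and 437 in DHEA, and 2 of the 8 had 0 reads in control. Of 5 germinal centre B cell markers, 4 were measured and all 4 were higher (1.26 and 24.0 FPKM in sum). The 10 crypt markers were Lgr5, Olfm4, Ascl2, Axin2, Smoc2, Slc12a2, Cdca7, Sox9, Lyz1 and Defa24, a list not limited to dividing cells. It had 8 measured, 2 higher and 2 lower (median 0.07), and its sum was 739 and 417 FPKM. The 8 enterocyte markers had 0 higher and 1 lower (median -0.46). The gut genes Tff2, Gkn3 and S100g, picked after their values were seen, summed to 16571 FPKM in control and 937 in DHEA. The part of these differences in the ratios of the replication and mitosis genes was not tested.

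**Figure D4:**
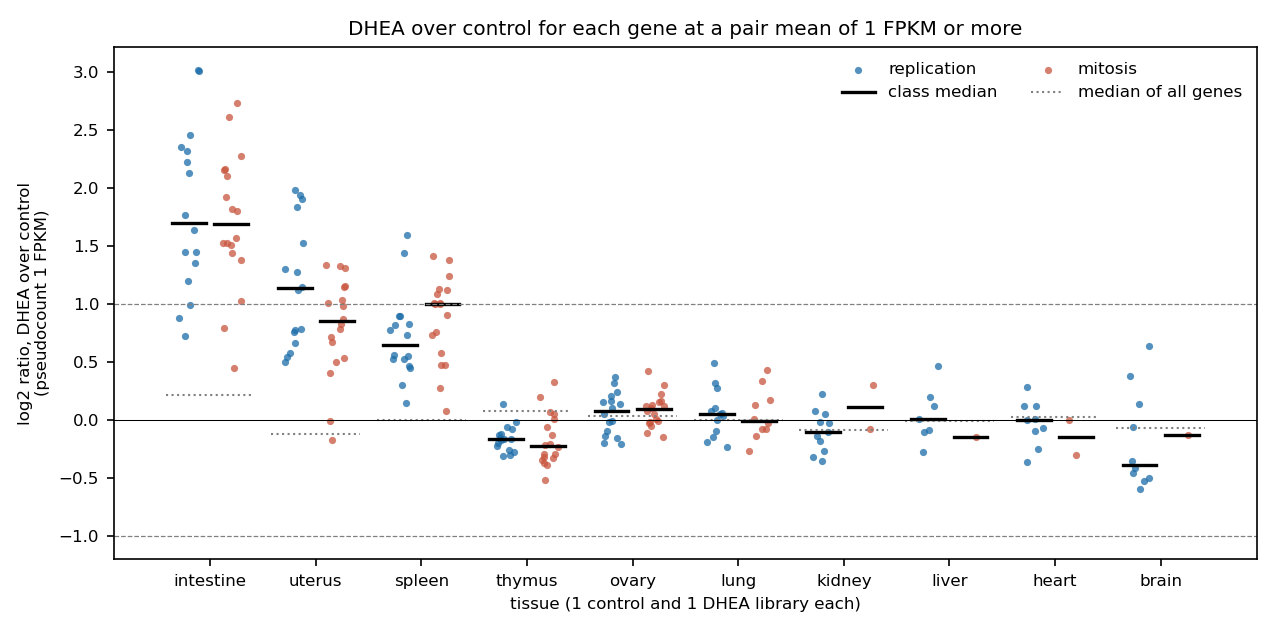
Log2 ratio of DHEA to control, on log2(FPKM + 1), for each gene whose pair averaged 1 FPKM or more; 1 point per gene, black bars for class medians, dotted lines for the median of all genes and dashed lines for 2-fold. All points of intestine and spleen lie above 0, uterus has 2 mitosis genes at or below 0, and no point of any tissue lies below the lower 2-fold line.

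In uterus the replication genes had the larger median difference. Of the 34 genes, 16 were 2-fold higher in the DHEA library, 9 of replication and 7 of mitosis, and 0 were lower, where 7.76% of all genes in that pair were 2-fold higher and 9.99% lower. The median log2 ratio was 1.13 for replication and 0.85 for mitosis, and -0.12 over all genes. All 16 replication genes and 16 of the 18 mitosis genes were higher in DHEA. For 4 genes (Cdc6, Ccne1, Bub1 and Cenpe) the control was under 1 FPKM.

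Mcm5 had the largest ratio on the log2(FPKM + 1) scale in uterus too, with 4.51 and 20.8 FPKM, 4.61-fold (4.07 to 5.24). Ccne1 was at 0.890 and 6.22 FPKM, 6.99-fold (4.99 to 10.0), and Cdc6 at 0.596 and 4.98, 8.35-fold (6.24 to 11.4). Rrm2 was at 5.42 and 21.9 FPKM, 4.04-fold (3.52 to 4.66), and Mcm3 at 8.48 and 26.2, 3.10-fold (2.81 to 3.42). Mcm2, Mcm4, Pcna and Rrm1 were also past the limit, and Mcm6 (17.3 and 29.9 FPKM), Mcm7 (13.4 and 19.2), Tyms, Cdt1, Gins2, Ccne2 and E2f1 were not. The highest helicase gene over the lowest was 3.84 in control and 2.41 in DHEA uterus.

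The mitosis genes of uterus were split. Mki67 (1.99 and 6.50 FPKM, 3.27-fold, 2.89 to 3.70), Top2a (6.81 and 18.7 FPKM, 2.74-fold, 2.56 to 2.95), Bub1, Aurkb, Kif20a, Kif11 and Plk1 were 2-fold higher. Ccnb2, the most abundant mitosis gene of the control uterus, had 12.6 FPKM in the control and 12.5 in the DHEA library, a ratio of 0.993 (0.854 to 1.16). Cenpa was at 3.09 and 2.62 FPKM, a ratio of 0.848 (0.721 to 0.999), and Cdc20 at 9.28 and 12.6, a ratio of 1.35 (1.16 to 1.57). These ratios depend on the scaling of the 2 libraries. The authors' deposited log2 values lie 0.24 above the log2 FPKM ratios in uterus. There Ccnb2 stood at 0.23, Cenpa at 0.0006 and Cdc20 at 0.67, so Cenpa was not lower. In intestine the same 3 genes had ratios of 5.21, 3.95 and 8.96. Their FPKM were above those of Mki67 in the control uterus.

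The uterus libraries also differed in other cell types. Of 8 macrophage markers 7 were 2-fold higher (156 and 524 FPKM in sum), all 9 adipocyte markers measured were lower (1359.9 and 206 FPKM), and so were 13 of 13 mitochondrially encoded genes (median -2.16). Among 9 uterine epithelium markers 4 were higher and 2 lower (median 0.99), with the secretory genes Lcn2 (2.16 and 2505 FPKM) and Ltf (28.0 and 5732 FPKM) at its top. The part of these differences in the ratios of the 34 genes was not tested.

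In spleen the mitosis genes had the larger median difference. Of the 34 genes, 10 were 2-fold higher in the DHEA library, 2 of 16 replication genes (Cdc6 and Rrm2) and 8 of 18 mitosis genes, and 0 were lower, where 5.8% of all genes in that pair were higher and 1.13% lower. All 34 were above control, with median log2 ratios of 0.64 for replication and 0.997 for mitosis, against 0.00 over all genes. Cdc6 was at 4.54 and 15.7 FPKM, 3.45-fold (3.09 to 3.87), and Rrm2 at 39.1 and 108 FPKM, 2.75-fold (2.61 to 2.90). The cyclins of mitosis were next: Ccnb1 was at 7.68 and 22.1 FPKM, 2.87-fold (2.61 to 3.17).

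Ccnb2 was at 21.2 and 56.5 FPKM in spleen, 2.66-fold (2.41 to 2.94), and Ccna2 at 17.6 and 43.0, 2.44-fold (2.28 to 2.61). Plk1, Aurka, Birc5, Mki67 and Cdc20 were the other genes past the limit, at 2.08-fold to 2.31-fold, and Cdk1 and Kif20a lay just under it (log2 ratios of 0.999 and 0.99). The helicase genes had ratios from 1.37 (Mcm3, 31.9 and 43.8 FPKM) to 1.90 (Mcm7, 23.8 and 45.3 FPKM), and Pcna was at 81.7 and 101 FPKM. Cenpe (0.996 and 1.10 FPKM) and Ccne2 (3.26 and 3.71) had counting intervals that held 1. The ratio of Ccnb2 was thus 2.66 in spleen, where it had been 0.993 in uterus.

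Precursor markers of blood cells were higher in the same spleen library. Of 12 erythroid precursor markers 11 were 2-fold higher and 0 lower (median 2.32), with a sum of 264 FPKM in control and 1856 in DHEA. Of 11 neutrophil precursor markers 10 were higher (182 and 1236 FPKM), and of 8 macrophage markers 7 (478 and 1154 FPKM), whereas the 8 B cell markers were all within 2-fold (2046 and 1520.0 FPKM; median -0.41). The neutrophil list is not limited to dividing cells. Its sum includes S100a8 (41.5 and 392 FPKM) and S100a9 (87.3 and 599 FPKM). Of 13 mitochondrially encoded genes, 12 were 2-fold lower (median -1.65). The part of these lists in the ratios of the 34 genes was not tested.

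Thymus, the tissue with the highest levels, had 0 genes past 2-fold in either direction, where 1.59% of all genes in that pair were higher and 0.302% lower. The medians were -0.17 for replication and -0.23 for mitosis, against 0.07 over all genes. In the DHEA library 28 of the 34 genes were lower, 26 of them with a counting interval below 1. The share of all genes that were lower, or lower with such an interval, is not given here. Counting intervals are narrow at these read numbers: Mcm4, with 2862 and 2456 reads, had a ratio of 0.944 (0.894 to 0.996). Plk1 was lowest, at 50.6 and 34.9 FPKM, a ratio of 0.691 (0.645 to 0.739). Aurka followed at 35.4 and 26.8 FPKM (0.757, 0.703 to 0.815), then Mki67 at 14.9 and 11.3 (0.756, 0.714 to 0.801). Bub1b (49.0 and 38.2 FPKM) and Cdc20 (84.2 and 66.7) had ratios of 0.781 and 0.793. Nusap1, a microtubule bundler of the spindle, went the other way, at 14.3 and 18.1 FPKM (1.27, 1.17 to 1.38), as did Bub1 (1.19, 1.01 to 1.40). Thymocyte markers had 12 of 12 members within 2-fold (median -0.04), and adipocyte markers were higher in 8 of 9 measured cases, with a sum of 115 FPKM in control and 538 in DHEA. The part of the adipocyte transcripts in these ratios was not tested.

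In ovary, 0 of the 34 genes were past 2-fold, where 2.13% of all genes in that pair were higher and 2.55% lower, and the medians were 0.08 and 0.09. The largest ratios were those of Aurka (8.09 and 11.1 FPKM, 1.38, 1.20 to 1.58), Mcm4 (14.4 and 18.9 FPKM, 1.31, 1.20 to 1.43) and Mcm2 (5.97 and 7.66 FPKM, 1.28, 1.16 to 1.42). The lowest were Ccne2 (0.839, 0.701 to 1.002), Ccne1 (0.787, 0.537 to 1.14) and Tyms (0.868, 0.745 to 1.01). Marker lists of the ovary differed more between the same libraries, with 6 of 7 luteal genes lower (2782 and 367 FPKM in sum) and 3 of 10 granulosa genes higher (1418 and 2018 FPKM). Of 15 cell cycle brakes, 14 were measured and 3 were 2-fold lower, Cdkn2b (20.5 and 1.77 FPKM), Btg2 (123 and 19.4) and Cdkn1a (54.6 and 9.75).

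Levels were low in the other 5 tissues, and 0 genes were past 2-fold in any of them. Lung had 23 genes measured, where 1.35% of all genes were higher and 0.818% lower, with class medians of 0.05 and -0.01. Its largest ratios were Mcm3 (5.59 and 8.23 FPKM, 1.47, 1.29 to 1.68) and Bub1b (1.97 and 2.999 FPKM, 1.52, 1.23 to 1.88). Kidney had 13 genes measured (1.07% of all genes higher and 0.635% lower), liver 8 (1.32% and 2.08%) and heart 11 (0.533% and 0.475%). In kidney Mcm4 was at 3.37 and 2.43 FPKM and Mcm3 at 2.14 and 1.51, in liver Rrm2 at 0.862 and 1.57, and in heart Mcm5 at 0.870 and 1.27 and Rrm2 at 1.46 and 0.906.

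Brain had 11 genes measured, where 4.81% of all genes in that pair were higher and 5.91% lower, and the median of its 10 replication genes was -0.39. Rrm1 (3.49 and 1.97 FPKM, a ratio of 0.565, 0.497 to 0.640), Mcm2 (1.57 and 0.786 FPKM), Ccne2 (2.14 and 1.22) and Mcm7 (4.81 and 3.22) were lower in the DHEA library. E2f1 was higher, at 1.58 and 3.01 FPKM, a ratio of 1.91 (1.48 to 2.47), and Mcm6 at 2.02 and 2.92. All 8 markers of cerebellar granule cells were 2-fold lower in that library, with a sum of 948 FPKM in control and 22.3 in DHEA and Gabra6 listed at 0 FPKM in DHEA. The part of this difference in the brain ratios was not tested.

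Set side by side, replication minus mitosis in the median log2 ratio was 0.01 in intestine, 0.28 in uterus, -0.36 in spleen, 0.06 in thymus and -0.01 in ovary. The summed reads of each group had the same order in uterus and spleen. In uterus the replication genes together had 2.37 times the control (2.30 to 2.43) and the mitosis genes 2.11 times (2.04 to 2.18). In spleen they had 1.70 (1.67 to 1.73) and 1.96 times (1.92 to 2.0). In intestine they had 4.97 (4.76 to 5.19) and 4.35 times (4.17 to 4.55), and in thymus 0.893 (0.882 to 0.905) and 0.848 times (0.837 to 0.860). Sums weight long and abundant genes most, and the difference between the 2 groups was not tested. With a pseudocount of 0.1 FPKM the difference in medians was 0.46 in intestine and 0.13 in uterus, and with means over the genes in place of medians it was -0.15 in spleen.

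Across the 10 tissues, no gene passed the test of a shared DHEA difference. In limma with tissue as a block, 0 of the 34 genes and 0 of 14833 genes in all had an adjusted p under 0.05 (percent called 0 in each direction). At an unadjusted p under 0.05, 1 of the 34 genes was higher and 0 lower, where 4.27% of all genes were higher and 3.18% lower. All 34 fitted differences were above 0 (32 with a pseudocount of 0.1 FPKM), with a median of 0.31 on the log2 scale against 0.01 for all genes. Among all genes, 7826 of 14833 were above 0 (7806 with that pseudocount). The 34 genes were read in the same 10 pairs and are not replicates of the DHEA difference. The smallest p-values were those of Ccne1 (0.45 ± 0.21 SE, higher in 8 of 10 tissues), Cdc6 (0.50 ± 0.24, 7 of 10) and Kif20a (0.40 ± 0.19, 7 of 10), each with a limma adjusted p of 0.663. Mcm5 had the same adjusted p. Without the intestine pair the median over the genes tested was 0.15, and the adjusted p of the 3 named genes lay between 0.609 and 0.616.

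Other genes of the same pathways, from lists of genes outside the 34, were counted in the same 3 tissues, where 11.9% (intestine), 7.76% (uterus) and 5.8% (spleen) of all genes were 2-fold higher. Of 35 other replication genes, 31 were measured in intestine and 21 were 2-fold higher (median 1.20), led by Uhrf1, which carries DNA methylation through replication (1.37 and 18.2 FPKM). In uterus 9 of 34 were higher (median 0.63) and in spleen 3 of 35 (median 0.36). Of 38 other mitosis genes, 22 of 27 measured were higher in intestine (median 1.56), 10 of 32 in uterus (median 0.81) and 11 of 36 in spleen (median 0.64), and 0 of either list were 2-fold lower in these tissues. Mybl2, the B-MYB factor that acts at CHR promoters, was at 0.303 and 4.14 FPKM in intestine, 0.727 and 3.19 in uterus and 4.30 and 12.1 in spleen. Like Mybl2 in intestine and uterus, a gene with a control under 1 FPKM was measured only because its DHEA value was high. Such genes raise the counts and medians of both lists, and their number is not given here. In spleen the origin gene Orc1 (1.45 and 7.28 FPKM) and the kinesin gene Kif18b (4.07 and 14.97) had the largest ratios of their lists. In uterus it was Uhrf1 (4.49 and 20.2 FPKM) and the checkpoint gene Mad2l1 (2.51 and 9.24).

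Genes that act upstream of S phase were counted against the same shares, and against 2.51% (intestine), 9.99% (uterus) and 1.13% (spleen) of all genes 2-fold lower. Of 8 G1 cyclins and kinases, 3 were 2-fold higher in intestine (median 0.96), with Ccnd1 at 1.63 and 7.77 FPKM and Cdk4 at 8.48 and 29.8, and 0 in uterus (median 0.13) and spleen (median -0.07). Of 14 cell cycle brakes measured in uterus, 3 were 2-fold lower and 1 higher (median -0.54): Cdkn1c, the p57 inhibitor, was at 23.1 and 5.34 FPKM, Ccng2 at 18.2 and 7.60 and Tob1 at 30.9 and 13.9, while Cdkn1a, the p21 inhibitor, was at 4.74 and 12.4. In intestine 3 brakes were higher and 0 lower, among them Cdkn2c (2.81 and 9.47 FPKM), and in spleen 0 were higher and 1 lower.

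**Figure D5:**
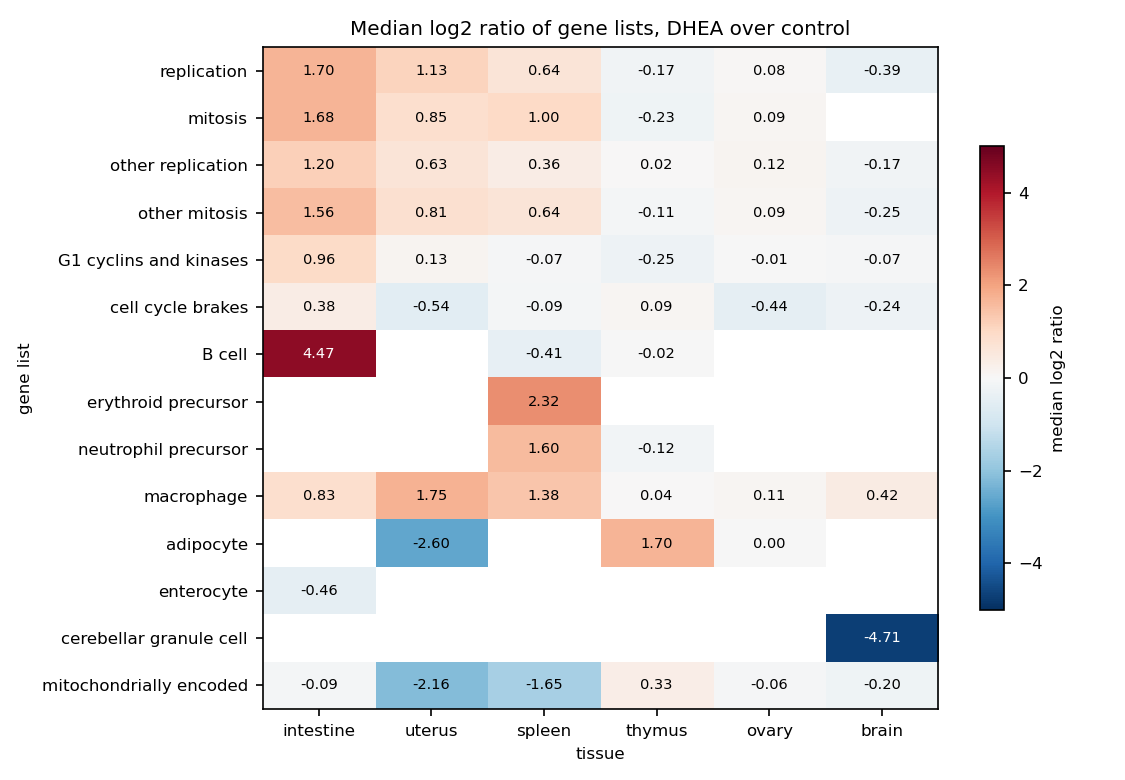
Median log2 ratio, DHEA over control, of the 2 groups of genes and of other lists in 6 tissues; a cell is blank where fewer than 5 genes of the list had a pair mean of at least 1 FPKM. The replication and mitosis rows and their 2 companion lists are red in intestine, uterus and spleen, and the marker lists that differ most beside them are B cell in intestine (4.47), adipocyte in uterus (-2.60) and erythroid precursor in spleen (2.32).

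The genes outside the 34 whose levels were most like the 2 groups were themselves of the cell cycle. Over the 20 libraries and 14635 genes, those with the highest Pearson r to the mean of the replication genes were Chaf1a (0.989), a chromatin assembly factor, Lig1 (0.988), the ligase of Okazaki fragments, Fignl1 (0.985), Mms22l (0.982) and Uhrf1 (0.981). To the mean of the mitosis genes they were Cdca2 (0.997), Tpx2 (0.993), a spindle assembly factor, Cdca5 (0.993), Tacc3 (0.991) and Knstrn (0.990). The points share tissues, and the correlation is a description of a pattern dominated by thymus and spleen against the rest.

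The authors' deposited table of log2 values lists 31 of the 34 genes, all but Bub1, Mki67 and Cenpe. In the authors' deposited table, which adds no pseudocount, 31 of the 31 were at 1 or above in intestine, 24 in uterus and 12 in spleen, and 0 in thymus and ovary. It also lists 11 genes at -1 or below in liver and 7 in heart, where levels were mostly under 1 FPKM. At 1 or above it has 3 genes in brain, 2 in liver and 1 in lung, and at -1 or below 2 each in kidney and brain. The share of all genes past these cuts in that table was not counted. Values in the authors' deposited table equalled log2 FPKM ratios plus 1 constant per tissue, 0.08 in intestine, 0.24 in uterus and -0.01 in spleen.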

How the data were processed

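The authors' deposited table gives FPKM for 24826 gene symbols in 20 libraries; 28 symbols that stand on 57 rows were left out. Per the submitters' processing notes reads were aligned with HISAT2 2.0.5 and the genome builds hg38 and mm39 are named; the counting tool, annotation and strand setting are not given in any source used here. The exon lengths implied by the FPKM equalled those of GENCODE M21 (GRCm38) for 34 of 34 genes. A second table holds the authors' deposited log2 values per tissue, used to describe only.

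Whole reads were recovered as the smallest whole numbers that fit a gene's FPKM over the libraries (relative tolerance 2e-10), which can be too few for a gene read in 1 or a few libraries. Libraries held 13206956 to 20704230 reads, 98.1% to 99.5% of the FPKM denominators, and exact 95% intervals from them cover counting error only. Ratios used log2(FPKM + 1) and a pair mean of at least 1 FPKM. limma 3.58.1 (R 4.3.3) with an intensity trend was fitted to log2(FPKM + 1) over all genes with tissue and treatment as terms, since FPKM are not counts, and its script was tested on simulated data. Figures and intervals were made with Python 3.11.15, numpy 2.4.6, pandas 2.3.3 and scipy 1.17.1.

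Within a tissue up to 5 genes per direction were named by size of the log2 ratio, across tissues the 3 smallest adjusted p (Mcm5 tied), and by likeness the 5 genes with the highest r to each group; others were named for their role. The 34 genes and the other lists were chosen with earlier results of these data known. The printed promoters and the 3 gut genes Tff2, Gkn3 and S100g were chosen after their values were seen. Alternatives were a pseudocount of 0.1, a minimum of 5 FPKM or none, scaling to equal FPKM sums, means in place of medians and leaving out each tissue.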

Additional observations from a re-analysis of the deposited data

Results flagged for a closer look

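The median replication gene was above control in intestine, uterus and spleen and below it in thymus, where 15 of 16 were lower, and for that reason these differences are given here. Their median log2 ratio, DHEA over control, was 1.87 higher in intestine than in thymus, 1.30 higher in uterus than in thymus and 0.81 higher in spleen than in thymus. All 16 replication genes were above control in intestine, uterus and spleen. The median was also below control in brain (-0.39) and kidney (-0.10). The share of all genes above or below control in each pair is not given here. With 1 library per tissue and treatment, the difference between tissues was not tested.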

How the results depend on the processing

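Across the tissues 0 of the 34 genes were called in every setting, leaving out each tissue in turn included. Among genes whose pair averaged 5 FPKM or more, 18 of the 34 genes were 2-fold higher in intestine, where 18 reached that level. In uterus 10 were 2-fold higher, where 20 reached it. Of all genes at that level, 10.99% were 2-fold higher in intestine and 7.85% in uterus. The level is the mean of the pair, so a gene with a low control can reach it through its DHEA value. Replication minus mitosis in the median log2 ratio was 0.46 in intestine, 0.13 in uterus and -0.31 in spleen with a pseudocount of 0.1 FPKM. With means over genes it was 0.36 in uterus, -0.15 in spleen and 0.013 in thymus. At 5 FPKM it was 0.21 in intestine, 0.45 in uterus, -0.27 in spleen, 0.097 in thymus and 0.076 in ovary, where it had been -0.01, and in lung it could not be computed. In the tissue contrasts at a mean of at least 5 FPKM, with 10 replication genes tested, those higher numbered 0 in brain, 1 in uterus, 10 in spleen and 10 in thymus, and those lower 10 in heart, 10 in liver, 7 in kidney and 2 in lung. Of all 9040 genes tested there, 2333, 2404, 3412 and 3892 were higher and 5062, 6134, 2758 and 1755 lower, in the same order of tissues. With a pseudocount of 0.1, replication genes higher numbered 8 in ovary and 1 in intestine and lower 2 in lung, and mitosis genes higher 9 in intestine and 14 in uterus and lower 4 in lung. Of all 14833 genes, 6383 were then higher in ovary, 2939 in intestine and 4125 in uterus, and 2302 lower in lung. With equal FPKM sums, replication genes higher numbered 10 in ovary and 5 in uterus and lower 2 in intestine, and mitosis genes higher 1 in intestine. Of all 15016 genes, 7931 were then higher in ovary and 4874 in uterus, and in intestine 1732 were higher and 9695 lower. In intestine the median difference of the 34 genes turned from 0.21 to -0.18, while that of all genes went from -0.43 to -0.72. The cause was not tested where the same genes were fitted. Within a tissue no paired analysis was possible, because each tissue has 1 library per treatment and the labels carry no replicate numbers. In the test across tissues the tissue was the block, so the control and DHEA libraries of a tissue formed the pair. The limits are the single library per condition, the low reads behind the control intestine, and levels under 1 FPKM in brain, heart, liver and kidney, where most mitosis genes could not be compared.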
